A study of Mus musculus with 18 samples.

Results

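MRTFB was set directly against MRTFA in E0771 cells, a mouse mammary tumour line of the C57BL6 strain. The comparison uses 6 of the 18 RNA-seq libraries of the study, 3 from cells carrying MRTFB and 3 from cells carrying MRTFA. The labels give each library's cell line, its transgene and a replicate number, and these chose the 6. The cells grew in RPMI medium with serum, each transgene sat in a pRetrox vector, and doxycycline at 500 ng/mL was given for 48 h to switch it on. The 3 libraries of E0771 cells with the empty vector received the same doxycycline and are given as background, but they entered neither the contrast nor its test. The remaining 9 libraries are the same 3 groups in B16F10 melanoma cells, of which the 6 with a transgene were used to ask whether the difference depends on the line. The labels do not state the species or form of the transgenes, whether the cells were clones or pools, or whether the replicates were separate cultures. P-values therefore measure only the spread between these libraries, which may be technical.

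MRTFA and MRTFB (gene symbols Mkl1 and Mkl2 in the deposited table) are related coactivators of serum response factor, SRF. They bind unpolymerised actin in the cytoplasm and move to the nucleus when actin is built into filaments. There they join SRF on its binding site, the CArG box, and raise transcription of actins, actin-binding proteins, focal adhesion proteins and the contractile genes of smooth muscle. Myocardin, the third member of the family, also joins SRF and acts in smooth muscle and heart.

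The sequences that follow are the stretches around CArG boxes in front of 7 genes that the results turn on, shown because they carry the site that SRF and its coactivators use. They come from RefSeq promoter entries on GRCm38.p6, read 5′ to 3′ on the strand of the gene, and lie within the 250 bases before the annotated start of transcription. The CArG box is in capitals and is defined here as CC, then 6 bases that are each A or T, then GG, a pattern that reads alike on both strands.
Actc1 (chr2:114052876-114052967, minus strand): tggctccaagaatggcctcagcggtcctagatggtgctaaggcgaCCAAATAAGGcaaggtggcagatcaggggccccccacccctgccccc
Acta1 (chr8:123894794-123894893, minus strand): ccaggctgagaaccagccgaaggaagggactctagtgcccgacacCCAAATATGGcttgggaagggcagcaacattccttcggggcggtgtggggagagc
Myl9 (chr2:156775258-156775357, plus strand): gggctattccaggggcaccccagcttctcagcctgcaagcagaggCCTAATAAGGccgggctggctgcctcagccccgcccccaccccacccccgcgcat
Fhl1 (chrX:56779536-56779635, plus strand): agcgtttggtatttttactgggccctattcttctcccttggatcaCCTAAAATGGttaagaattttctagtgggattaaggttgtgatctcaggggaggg
Srf (chr17:46556170-46556289, minus strand): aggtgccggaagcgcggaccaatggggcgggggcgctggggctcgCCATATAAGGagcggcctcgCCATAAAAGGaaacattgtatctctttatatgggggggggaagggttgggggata
Vcl (chr14:20929148-20929225, plus strand): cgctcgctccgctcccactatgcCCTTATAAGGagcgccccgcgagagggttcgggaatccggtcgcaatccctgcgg
Actg1 (chr11:120348531-120348630, minus strand): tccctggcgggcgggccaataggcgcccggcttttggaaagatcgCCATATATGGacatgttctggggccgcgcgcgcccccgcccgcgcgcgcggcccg
The first base of the box lies 47 bases before the start of transcription in Actc1, 73 in Acta1, 161 in Myl9, 102 in Fhl1, 227 in Vcl and 90 in Actg1. Srf, which encodes serum response factor itself, has a pair of boxes at 82 and 62 bases. All 7 genes had lower RNA with MRTFB than with MRTFA, by amounts that ranged from −0.85 on the log2 scale for Actg1 to −12.22 for Actc1.

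Reads of the genes for MRTFA and MRTFB were examined first. Mkl1 (chromosome 15, 81012281 to 81190757) had 12469, 16557 and 12160 scaled reads in the MRTFA libraries of replicates 1, 2 and 3, and 1037, 1341 and 1699 in the MRTFB libraries. A scaled read is a read divided by the authors' size factor for its library. Its MRTFB values overlapped the 1124, 1514 and 1408 of the controls, and the ratio of the group means, MRTFA over MRTFB, was 10.1. The log2 difference, MRTFB minus MRTFA, was −3.35 (SE 0.16, adjusted p = 3.49e-05 by limma). Mkl2 (chromosome 16, 13256481 to 13417529) had 2056, 2206 and 2211 in the MRTFB libraries and 1068, 1182 and 1301 in the MRTFA libraries, against 1235, 1350 and 1446 in controls. That was a difference of 0.87 (SE 0.09, adjusted p = 0.000724) and a ratio of means of 1.82. Reads of each gene were thus highest in the libraries labelled with its transgene, by a larger ratio for Mkl1 than for Mkl2. These are reads assigned to the mouse genes, endogenous RNA included, and how much of the transgene RNA they capture is not known. Whether a difference between the groups comes from the protein or from its amount cannot be told apart in this design, and the protein was not measured. Myocardin, Myocd, had 9 reads over the 6 libraries, all of them with MRTFA, and was too low to test.

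Across the transcriptome, large differences ran almost wholly in 1 direction: RNA was lower with MRTFB. Of 12960 tested genes, 4465 (34.5%) passed an adjusted p under 0.05. Of these, 2638 (20.4% of tested genes) were lower and 1827 (14.1%) were higher with MRTFB. These shares are the background for the counts of each gene list below. The median difference was −1.09 among the genes called lower and 0.48 among those called higher, and 0.02 over all tested genes. At least a 2-fold difference was found for 1434 genes called lower and 134 called higher, at least 4-fold for 739 and 4, at least 16-fold for 304 and 0, and at least 64-fold for 87 and 0. The number called higher depended on scaling: upper-quartile scaling, which shifted the median of all genes to 0.09, gave 2590 higher and 2432 lower. Without replicate pair 2 the test called 2159 genes, 1830 of them lower and 329 higher. Without the block it called 2629 when MRTFA replicate 2 was left out and 2683 when MRTFB replicate 2 was.

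**Figure D1:**
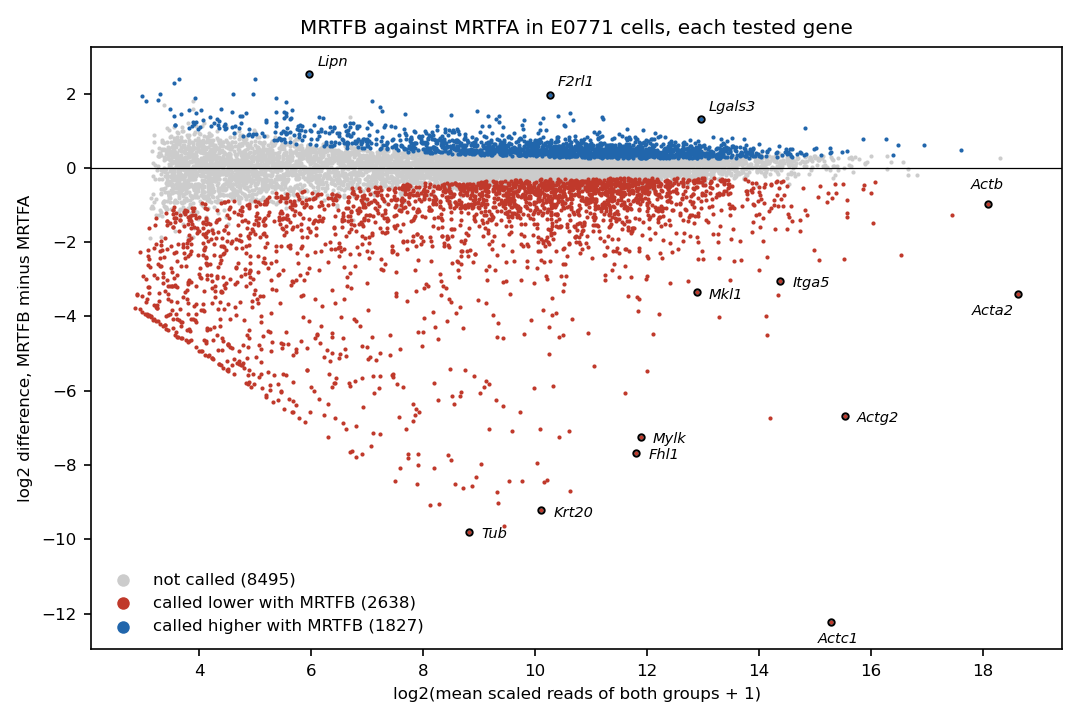
Each point is a tested gene, with the log2 of its mean scaled reads over both groups (plus 1) on the horizontal axis and its log2 difference, MRTFB minus MRTFA, on the vertical axis; called genes are coloured by direction. The genes called lower with MRTFB reach −12.22 (Actc1), whereas the highest point stands at 2.52 (Lipn), and the straight lower edge on the left is where MRTFB libraries have no reads.

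Genes with a large difference stood apart from the empty-vector controls mostly in the MRTFA libraries. Of the 1434 genes at least 2-fold lower with MRTFB, the 3 MRTFA values lay above all 3 controls in 1385 (96.6%), while the MRTFB values overlapped the controls in 1284 (89.5%), lay above them in 128 and below them in 22. Of the 134 genes at least 2-fold higher with MRTFB, the MRTFA values lay below all controls in 105 (78.4%) and the MRTFB values overlapped the controls in 118 (88.1%). Over all tested genes, MRTFA values lay above all controls in 24.7% and below in 25.9%, and MRTFB values overlapped the controls in 94.4%. The MRTFB overlap in genes with a large difference was thus slightly below that of all tested genes. MRTFB values lay above the controls in 8.93% of the genes at least 2-fold lower, against 3.09% of all tested genes. These shares are a description, since the MRTFA and MRTFB values also chose the genes. Every one of the 170 called genes picked by the naming rule differed in the same direction in all 3 replicate pairs. In 164 of them the groups' values did not overlap, as in 6167 of all 12960 tested genes. The rule takes genes with large differences or low adjusted p and for some of them requires no overlap. It thus in part fixes both counts of the named genes.

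Smooth muscle contractile genes were lower with MRTFB, nearly without exception. Of 20 tested members 19 were called lower and 1 higher, with a median of −3.41, against 20.4% and 14.1% of all tested genes and a median of 0.02. The member called higher was Smoc1 (0.62), a secreted calcium-binding protein named after its value was seen, as the exception. Together the 22 members in the table took 3.09%, 3.24% and 2.69% of all reads in the MRTFA libraries, 0.315%, 0.346% and 0.407% in the MRTFB libraries and 0.139% to 0.166% in controls.

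Smooth muscle alpha-actin, Acta2 (chromosome 19, 34241090 to 34255590), had 716670, 813607 and 675541 scaled reads with MRTFA and 59670, 70463 and 79723 with MRTFB. Controls had 23963, 16568 and 18722, so the MRTFB libraries lay between controls and MRTFA with no overlap on either side. The difference was −3.40 (SE 0.15, adjusted p = 2.6e-05), a ratio of means of 10.5. Tagln (chromosome 9, 45929619 to 45936058), which encodes the actin-bundling protein transgelin, had 41772, 48323 and 23674 with MRTFA and 2996, 4127 and 3194 with MRTFB, again above the 268 to 484 of controls (−3.41, adjusted p = 3.88e-05). The regulatory myosin light chain Myl9, whose CArG box is shown above, had 37327, 39317 and 27320 against 1343, 1453 and 1754 (−4.50, SE 0.17, adjusted p = 1.78e-05). Its kinase, Mylk, which switches on smooth muscle myosin, differed more: 7799, 9509 and 5179 with MRTFA and 47.3, 44.2 and 48.5 with MRTFB (−7.25, SE 0.19, adjusted p = 6.73e-06). Controls had 18.1 to 27 scaled reads of Mylk. Enteric smooth muscle actin, Actg2, had 99623, 102902 and 77309 against 872, 849 and 1016 (−6.67, SE 0.14, adjusted p = 5.71e-06), a ratio of 102. Calponin, Cnn1, which binds actin in smooth muscle, had 2189, 1981 and 932 against 67.5, 89.4 and 59.6 (−4.47, adjusted p = 2.94e-05). Smooth muscle myosin heavy chain, Myh11, had 2265, 2329 and 1357 against 25.9, 19.8 and 56.3 (−5.92, SE 0.40, adjusted p = 0.000108), and −6.60 without replicate pair 3. Contractile genes thus differed by unequal amounts, from a ratio of 10.5 for Acta2 to 161 for Mylk. MRTFA replicate 3 was the lowest of the MRTFA libraries in 18 of the 20 tested members (90.0%, against 37.0% of all tested genes). Without replicate pair 3 the list had the same counts and a median of −3.56.

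**Figure D2:**
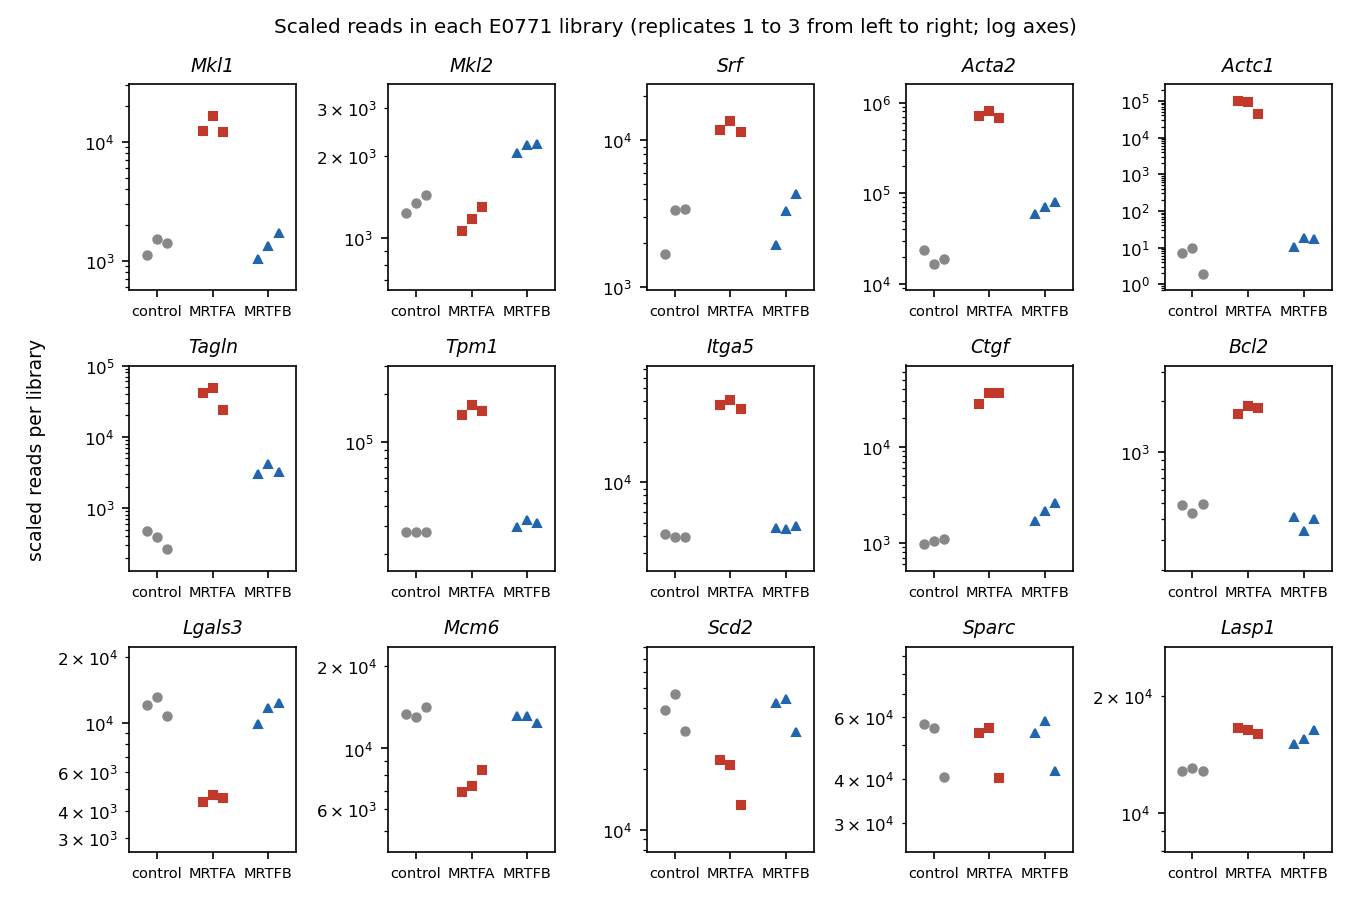
Each panel gives 1 gene, with scaled reads on a log axis in the 9 E0771 libraries; grey circles are controls, red squares MRTFA and blue triangles MRTFB, with replicates 1 to 3 from left to right. Acta2 and Tagln in MRTFB libraries lie between controls and MRTFA, whereas Itga5, Tpm1 and Bcl2 lie near controls; Lgals3, Mcm6 and Scd2 are lower with MRTFA, and Sparc and Lasp1 differ little between MRTFA and MRTFB.

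Striated muscle genes included the gene with the largest difference, Actc1. Of 27 tested members 20 were called lower with MRTFB and 1 higher, against 20.4% and 14.1% of all tested genes. The median was −3.18 and moved to −4.50 when only genes with a value of at least 50 were tested. Of the 51 members of the list 41 were in the table. Testing required 10 scaled reads in 3 libraries, which the MRTFA libraries alone could meet. Members without MRTFB reads, such as Ckm, could only be lower, so this filter in part fixed the count called lower. Cardiac actin, Actc1 (chromosome 2, 114047282 to 114053548), had 101414, 91111 and 45202 scaled reads with MRTFA and 10.1, 18.8 and 16.6 with MRTFB. That is a difference of −12.22 (SE 0.30, adjusted p = 5.8e-06) and a ratio of means of 5224. MRTFB libraries, like the controls at 1.87 to 10, held only traces of it. Skeletal actin, Acta1 (chromosome 8, 123891769 to 123894751), had 42353, 40768 and 27875 against 180, 365 and 610. Here all 3 MRTFB values stood above the 24.3 to 33.2 of controls, and the difference was −6.73 (SE 0.38, adjusted p = 5.64e-05), or −7.33 without replicate pair 3. The myosin heavy chain gene Myh13, known from extraocular muscle, had 4261 reads over the MRTFA libraries, 2 over the MRTFB libraries and 0 in controls. Scaled for depth, the ratio was 2004, with a counting interval of 554 to 16553. Muscle creatine kinase, Ckm, which buffers ATP in muscle, had 922, 707 and 226 scaled reads with MRTFA and none with MRTFB, and was at least 597-fold lower with MRTFB against a limit of 3 reads over the group. Ldb3, a protein of the sarcomere's Z-disc, had 2706, 3140 and 2483 against 96.8, 114 and 157 (−4.51, adjusted p = 2.17e-05). The member called higher was Nrap (0.74, adjusted p = 0.014), named after its value was seen, as the exception. As with smooth muscle genes, MRTFA replicate 3 was the lowest MRTFA library in 22 of 27 members.

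Among factors of muscle lineages, the skeletal muscle regulators Myod1, Myog and Myf5 and the cardiac regulators Gata4 and Gata6 were not in the table, and Nkx2-5 had 4.98, 3.72 and 5.22 scaled reads with MRTFA and 0 with MRTFB. Of the muscle lineage factors, 3 could be tested and 1 was called: Mef2a (3557, 4023 and 3861 against 2201, 2453 and 2086; −0.76, adjusted p = 0.00108). Its relative Mef2d stood at 0.02 (95% interval −0.27 to 0.30), and the other tested member, the cardiac factor Hand1, at −0.27 (adjusted p = 0.444). The 1 call among 3 members (33.3%) was near the 34.5% called among all tested genes.

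All 6 actin genes were lower with MRTFB, the muscle isoforms by far more than the cytoplasmic ones. Per kilobase of exon, mean scaled reads were 334824 with MRTFA and 31854 with MRTFB for Acta2, and 136712 and 70317 for cytoplasmic beta-actin, Actb. Thus Acta2 had the highest level of the 6 per kilobase with MRTFA, and Actb had it with MRTFB. Actb had 371127, 375292 and 352333 scaled reads with MRTFA and 161225, 189861 and 214053 with MRTFB (−0.97, adjusted p = 0.00316), and gamma-actin, Actg1, stood at −0.85 (adjusted p = 0.00155). Close paralogs such as the actins may share reads, since no source used here says how the authors counted reads that fit several genes.

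Genes of the actin cytoskeleton were lower with MRTFB, most of them by smaller factors than the contractile genes. Of 45 tested members of the cytoskeleton list 38 were called lower and 0 higher, against 20.4% and 14.1% of all tested genes, with a median of −1.26. At an unadjusted p under 0.05 the limma test, and at the adjusted threshold edgeR and DESeq2, also put 0 members higher. Tropomyosin, Tpm1, which lines actin filaments, had 147557, 172069 and 157075 scaled reads with MRTFA and 29587, 32696 and 31445 with MRTFB (−2.34, SE 0.10, adjusted p = 2.44e-05). Vinculin, Vcl (chromosome 14), which ties integrins to actin, had 18971, 22973 and 19396 against 4148, 5266 and 6568 (−1.96, SE 0.14, adjusted p = 0.000122). Palladin, Palld, an actin-crosslinking scaffold, had 11291, 12196 and 12632 against 1152, 1314 and 2037 (−3.05, adjusted p = 2.94e-05). The actin nucleator Cobl went furthest in this list, with 1965, 2334 and 1970 against 4.5, 5.65 and 15.4 (−7.95, SE 0.32, adjusted p = 2.28e-05). Fhl1 (chromosome X), a LIM-domain protein of muscle, had 6131, 7056 and 8075 against 16.9, 18.8 and 116 (−7.67, SE 0.44, adjusted p = 5.88e-05), and −8.45 without replicate pair 3, where its MRTFB value was highest. Lasp1 and Tmod3 were close to equal: Lasp1, an actin-binding adaptor, had 16586, 16333 and 15966 against 15036, 15532 and 16349 (−0.06, 95% interval −0.27 to 0.15), and the filament-capping Tmod3 stood at 0.07 (−0.14 to 0.27).

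Within the pathway itself, 7 of 11 tested genes of MRTF, SRF and their partners were called lower with MRTFB and 1, Mkl2, higher (median −1.58). Over all tested genes 20.4% were lower and 14.1% higher. Serum response factor, Srf (chromosome 17, 46548329 to 46556175), had 11632, 13443 and 11320 with MRTFA and 1940, 3293 and 4287 with MRTFB, which overlapped the 1684, 3317 and 3370 of controls. The difference was −2.0 (SE 0.20, adjusted p = 0.000617). Elk1, which competes with MRTFs for SRF, stood at −2.05 (adjusted p = 6.62e-05), the actin-oxidising enzyme Mical2 at −1.58 and the LIM protein Fhl2 at −1.92 (adjusted p = 4.26e-05).

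CArG boxes were more frequent in the promoter windows of genes that were lower with MRTFB. Among the 9185 tested genes with a promoter entry, 137 (1.49%) had a box within the 250 bases before the start, against 1.62% of all 27025 genes of the promoter table. The share was 4.02% of genes called lower (77 of 1914), 0.92% of genes not called (54 of 5868) and 0.428% of genes called higher (6 of 1403). It was larger for larger differences, from 2.1% of genes called lower by less than 2-fold to 5.75% at 2-fold or more, 7.17% at 4-fold or more and 7.66% at 16-fold or more (16 of 209). At 64-fold or more it was 7.58% (5 of 66), no higher than at 16-fold. By list, the box was found in 3 of 9 genes of MRTF, SRF and partners with an entry, 5 of 21 striated muscle genes, 6 of 38 cytoskeleton genes and 1 of 14 smooth muscle genes. It was found in 0 of 16 integrin and adhesion genes, 0 of 22 matrix genes, 0 of 14 YAP-TAZ targets, 0 of 15 secreted factors and 0 of 14 proteases, lists that also held more genes called lower than higher. No box by this definition was found in the window of Acta2, Cnn1, Mylk, Itga5, Itga1, Ankrd1 or Fas, and Actg2, Tagln, Myh11, Actb and Ctgf had no entry. A match is a stretch of letters and not a measured binding site, and most of the genes lower by 16-fold or more had none in this window.

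**Figure D3:**
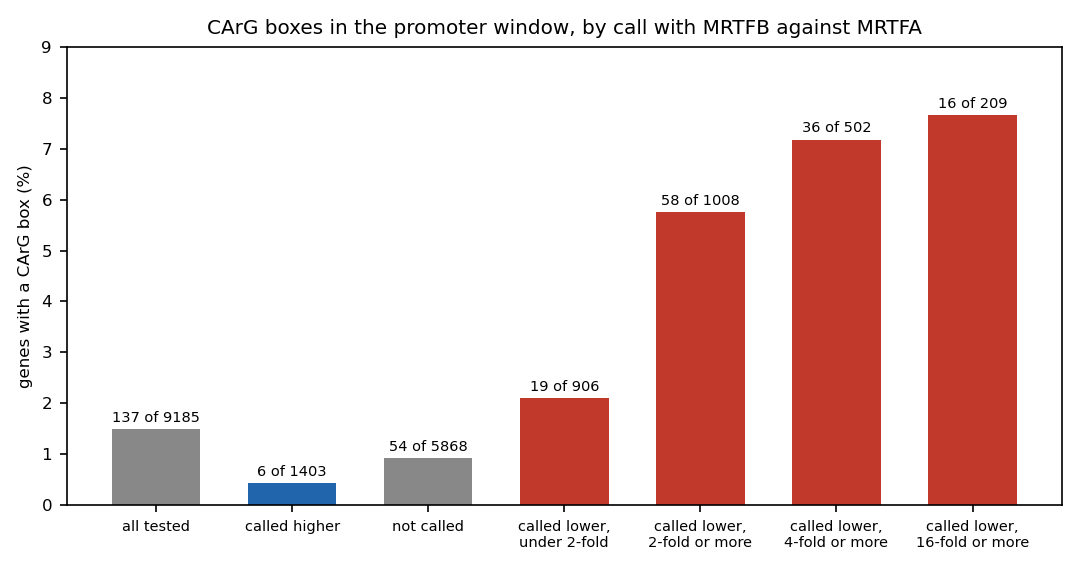
Bars give the percentage of genes with a CArG box in the 250 bases before the start of transcription, among genes with a promoter entry, by class of call; numbers above the bars are genes with a box of genes with an entry, and the classes of 2-fold, 4-fold and 16-fold or more are nested. The bars run from 0.428% of genes called higher with MRTFB to 7.66% of genes lower by 16-fold or more, against 1.49% of all tested genes.

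**Figure D4:**
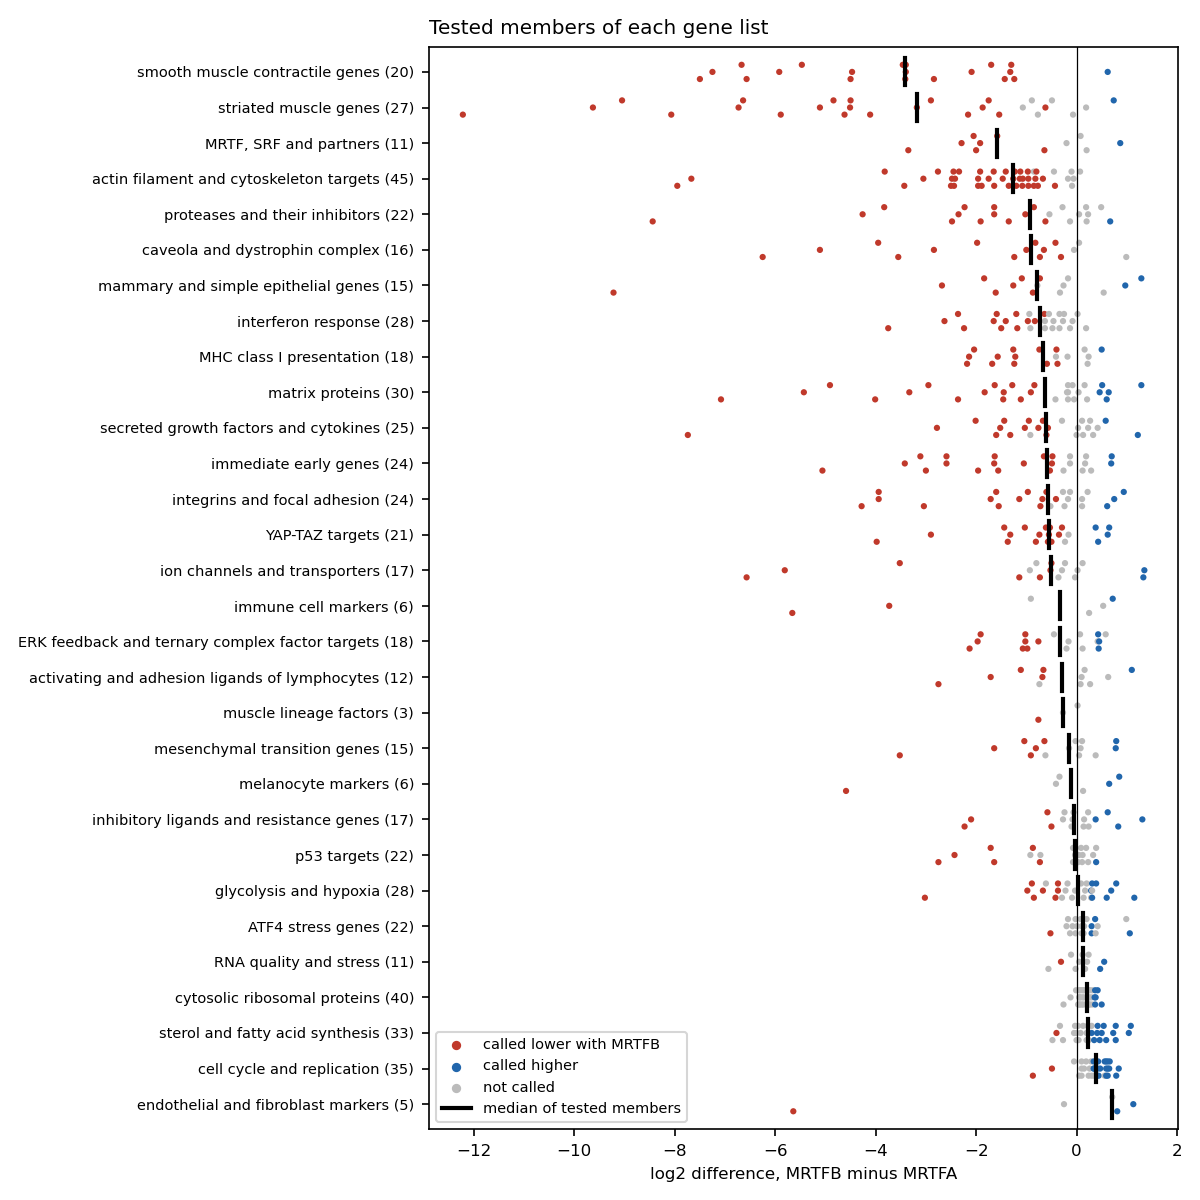
Each point is a tested member of 1 of 30 gene lists, placed by its log2 difference, MRTFB minus MRTFA, on the horizontal axis, and the bar in each row is the list's median. Smooth muscle genes (median −3.41) and striated muscle genes (−3.18) lie farthest to the left, and the cell cycle list (0.39) lies to the right of 0.

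Adhesion genes followed in the same direction with exceptions. Of 24 tested integrin and focal adhesion genes 13 were called lower with MRTFB and 3 higher, against 20.4% and 14.1% of all tested genes. The median was −0.56. The fibronectin receptor subunit Itga5 (chromosome 15) had 37590, 41089 and 35030 scaled reads with MRTFA and 4585, 4511 and 4747 with MRTFB, just above the 3921 to 4151 of controls (−3.04, SE 0.10, adjusted p = 9.83e-06). The collagen receptor subunit Itga1 had 8016, 9866 and 8809 against 621, 522 and 596 (−3.94, SE 0.12, adjusted p = 9.83e-06). Tensin Tns1, which links integrins to actin, stood at −1.71 and the integrin subunit Itgb3 at −1.55. Members called higher with MRTFB, named after their values were seen, were Itga3 (0.61), Itgb5 (0.75) and Itgb7 (0.94, adjusted p = 0.0166 with the replicate block and 0.106 without).

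Matrix genes were split: 15 of 30 tested members were lower with MRTFB, 5 higher and 10 not called (median −0.63, and −0.31 with a minimum value of 50). The shares of all tested genes were 20.4% lower and 14.1% higher. Tenascin, Tnc, a matrix protein of wounds and tumour stroma, had mean scaled reads of 18819 against 1181 (−4.01, SE 0.10, adjusted p = 5.71e-06). Fibrillin, Fbn1, which forms microfibrils, had 1261, 1761 and 1528 against 9, 10.4 and 11 (−7.08, SE 0.16, adjusted p = 5.71e-06). The laminin chain Lamb1 stood at −2.95, while its partner Lamc1 stood at −0.05 (95% interval −0.26 to 0.15). Sparc, an abundant matricellular protein, had 54097, 56123 and 40340 with MRTFA and 54224, 58608 and 42318 with MRTFB (0.04, −0.18 to 0.27). In Sparc the replicate numbers moved together: replicate 3 was lowest with MRTFA and with MRTFB.

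Of 16 tested caveola and dystrophin-complex genes 13 were lower with MRTFB and 0 higher by limma, edgeR or DESeq2, also at an unadjusted p under 0.05 by limma (median −0.91). Dystrophin, Dmd, which anchors the cytoskeleton to the membrane, had 638, 675 and 498 scaled reads with MRTFA and 7.88, 7.53 and 5.52 with MRTFB (−6.25, SE 0.18, adjusted p = 7.99e-06). The caveola component Sdpr stood at −3.55 and the caveolar ATPase Ehd2 at 0.05 (−0.18 to 0.28). Among ion channels and transporters 7 of 17 were lower and 2 higher, against 20.4% and 14.1% of all tested genes. The share called higher was thus near that of all tested genes. Kcnmb1, the smooth muscle subunit of the calcium-activated potassium channel, had 1857, 1711 and 1487 against 14.6, 10.4 and 29.8 (−6.57, adjusted p = 3.1e-05), whereas the chloride channel Ano1 (1.33, adjusted p = 0.000203) and the water channel Aqp1 (1.35, adjusted p = 0.000312) were higher with MRTFB.

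Growth-response genes were mostly lower with MRTFB. Of 21 YAP-TAZ targets 15 were called lower and 4 higher (median −0.55), and 10 in all without replicate pair 2. The shares of all tested genes were 20.4% lower and 14.1% higher. Connective tissue growth factor, Ctgf (Ccn2; chromosome 10), had 27576, 36449 and 36482 with MRTFA and 1677, 2146 and 2589 with MRTFB, which lay above the 965 to 1082 of controls (−3.98, SE 0.09, adjusted p = 5.71e-06). Cyr61 (Ccn1), its relative, had 24356, 35057 and 42462 against 10928, 13091 and 16319 (−1.32, SE 0.10, adjusted p = 0.000147). Ankrd1, a muscle ankyrin-repeat protein, stood at −2.90. Of 24 immediate early genes, which respond within minutes to serum, 15 were lower and 2 higher (median −0.59). Arc had 2102, 2254 and 1956 against 243, 266 and 279 (−3.0, adjusted p = 1.77e-05), and Zfp36, which destabilises cytokine messages, stood at −2.59. The transcription factor Egr3 had 175, 165 and 219 against 2.25, 1.88 and 17.7 (−5.06, adjusted p = 0.000404), or −5.81 without replicate pair 3. Feedback genes of ERK signalling had 8 of 18 lower and 3 higher (median −0.33), with the urokinase receptor Plaur at −1.91 (16956, 19627 and 17777 against 3236, 4947 and 7024); their count of calls was 7 without replicate pair 2.

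Secreted factors and proteases had a similar split. Of 25 growth factors and cytokines 13 were lower with MRTFB and 2 higher (median −0.60). Csf3, which drives neutrophil production, had 672, 722 and 685 scaled reads with MRTFA and 2.25, 0.941 and 4.41 with MRTFB (−7.74, SE 0.32, adjusted p = 2.28e-05). Tgfb3 stood at −2.01 (3282, 3179 and 2821 against 775, 825 and 701). Of 22 proteases and inhibitors 13 were lower and 1 higher (median −0.93). Urokinase, Plau, which activates plasminogen, had 2996, 3729 and 5181 against 514, 610 and 1399 (−2.35, adjusted p = 9.38e-05), and the membrane metalloprotease Mmp14 stood at −1.64. The metalloprotease inhibitor Timp1 stood at 0.05 (95% interval −0.21 to 0.30). Adrenomedullin, Adm, a vasodilator peptide of the hypoxia list, had 15571, 20598 and 24964 against 1713, 2763 and 3163 (−3.02, SE 0.09, adjusted p = 9.83e-06). That list had 8 of 28 genes lower and 8 higher, against 20.4% and 14.1% of all tested genes, with a median of 0.03. Without the block 6 were lower and 4 higher, and without replicate pair 2, 5 and 3.

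Genes through which tumour cells meet lymphocytes were split in direction. Among activating and adhesion ligands 5 of 12 were lower with MRTFB and 1 higher (median −0.29), against 20.4% and 14.1% of all tested genes. The death receptor Fas (chromosome 19, 34290666 to 34327772) had 870, 996 and 1039 scaled reads with MRTFA, 179, 120 and 137 with MRTFB and 36.1 to 60.7 in controls (−2.75, SE 0.17, adjusted p = 8.47e-05). Tnfrsf10b, the receptor of the death ligand TRAIL, stood at −1.71 and Pvr, a ligand of lymphocyte receptors, at −1.11 (7262, 8759 and 10552 against 3218, 3851 and 5340). Among inhibitory ligands and resistance genes 4 of 17 were lower and 4 higher (median −0.06). The survival gene Bcl2 had 1683, 1876 and 1837 against 410, 342 and 399 (−2.23, adjusted p = 4.26e-05). Galectin-3, Lgals3, went the other way, with 4368, 4685 and 4552 with MRTFA and 9933, 11703 and 12343 with MRTFB (1.31, SE 0.09, adjusted p = 0.000115), as did the checkpoint protein Cd276 (0.83) and the ectonucleotidase Nt5e (0.62).

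Antigen-presentation and interferon genes had a negative list median, MRTFB minus MRTFA, in each replicate pair, from levels that depended strongly on the replicate number. The medians of pairs 1, 2 and 3 were −1.05, −0.75 and −0.53 for antigen presentation and −0.55, −0.3 and −1.53 for interferon. Of 18 MHC class I presentation genes 12 were called lower and 1 higher (median −0.66), against 20.4% and 14.1% of all tested genes. Without the replicate block 7 were called. Nlrc5, the transactivator of MHC class I genes, had 2059, 1956 and 3387 with MRTFA and 504, 368 and 1054 with MRTFB (−2.04, SE 0.15, adjusted p = 0.000136). B2m, the invariant chain of MHC class I, had 34229, 33932 and 54670 against 14085, 11862 and 27810 (−1.26, SE 0.12, adjusted p = 0.000496), and its call was lost without the block when MRTFB replicate 2 was left out (0.0515). The peptide transporter Tap1 had 1275, 917 and 2187 against 431, 398 and 1168, so that the groups overlapped (−1.22, adjusted p = 0.00106 with the block and 0.0564 without).

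Of 28 interferon-response genes 13 were called lower with MRTFB and 0 higher with the block (0 also at an unadjusted p under 0.05, and 0 by edgeR and DESeq2), and 2 were called without it. The median was −0.73. Over all tested genes 20.4% were called lower and 14.1% higher with the block. The guanylate-binding protein Gbp2 had 482, 420 and 1360 against 28.1, 38.6 and 97.1 (−3.75, SE 0.17), and was called both ways (adjusted p = 2.94e-05 with the block and 0.000761 without). Usp18, which removes the ubiquitin-like ISG15, had 80.7, 49.2 and 2900 with MRTFA and 12.4, 8.47 and 398 with MRTFB (−2.63; adjusted p = 0.000116 with the block and 0.277 without). Irf7, a regulator of interferon genes, had 139, 105 and 1929 against 18, 32.9 and 425 (−2.24; 0.000868 and 0.224). In both genes replicate 3 of each group, controls included, stood far above replicates 1 and 2. MRTFB replicate 3 was the highest MRTFB library in 27 of the 28 interferon genes (96.4%, against 37.2% of all tested genes), and MRTFA replicate 3 was the lowest MRTFA library in 0 of them. The labels do not say what the replicate numbers stand for, and what made replicate 3 differ was not tested. Without replicate pair 3, 13 interferon genes were called lower and 1 higher, with a median of −0.32. Without the block and MRTFA replicate 3, 2 were called lower and the median turned to 0.26.

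**Figure D5:**
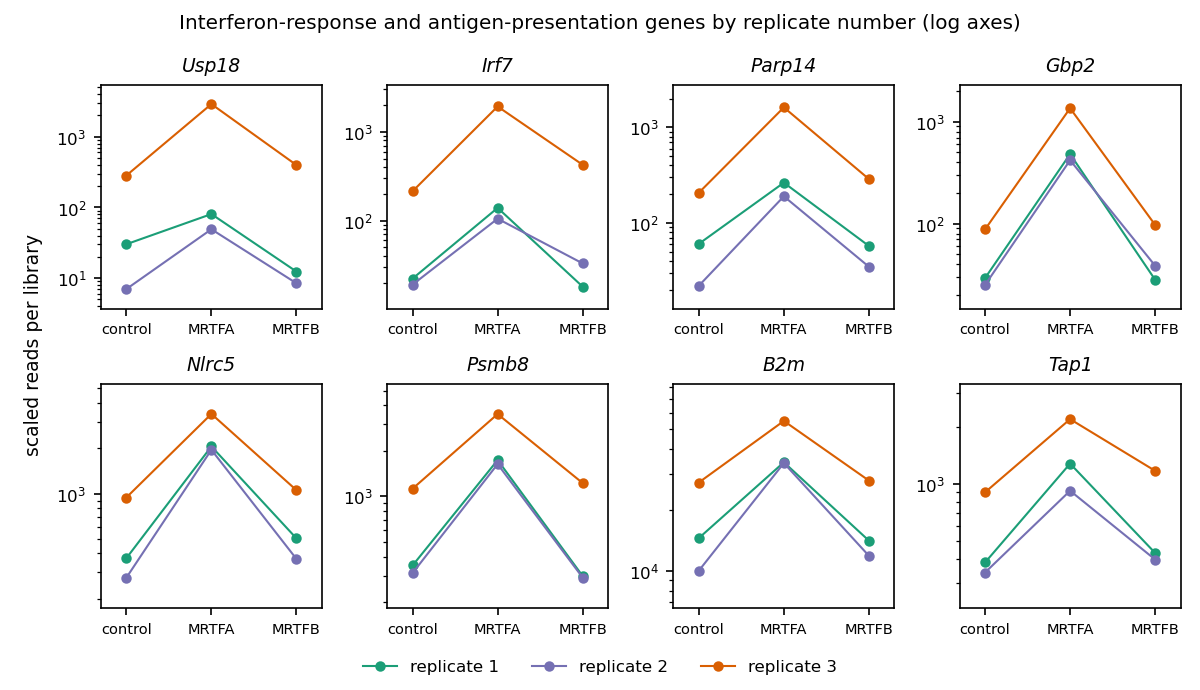
Each panel gives scaled reads of 1 gene on a log axis in control, MRTFA and MRTFB libraries, with a line joining the libraries of equal replicate number. Replicate 3 lies above replicates 1 and 2 in every group, and in all 3 replicates the MRTFB value is below the MRTFA value.

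Epithelial genes were lower with MRTFB more often than higher, with 8 of 15 tested members called lower and 2 higher (median −0.78), against 20.4% and 14.1% of all tested genes. Krt8, a simple epithelial keratin, had 14618, 16640 and 15388 scaled reads with MRTFA and 5803, 7363 and 8996 with MRTFB (−1.09, SE 0.12, adjusted p = 0.000921). The intestinal keratin Krt20 had 2156, 2064 and 2368 against 1.13, 0.941 and 11 (−9.22, SE 0.47, adjusted p = 4.16e-05), and −10.02 without replicate pair 3. Wfdc2, a secreted epithelial protease inhibitor, was higher with MRTFB (1.29, adjusted p = 0.000377), as was the receptor Erbb3 (0.97). Of the defining markers of the labelled mammary cell type, Krt8 had 5689 to 7794 scaled reads in controls and Erbb2 1281 to 1528 in controls and 1194 to 1729 in the 6 libraries, while in these 6 Epcam and Cdh1 had at most 49.1 and 13.5, Krt19 at most 6.97 and Elf5 at most 1.1. Mesenchymal transition genes had 6 of 15 lower and 2 higher (median −0.15), with Zeb1 at −0.91 (adjusted p = 0.000515) and Snai2 at −3.52 (adjusted p = 0.000961; −4.13 without replicate pair 3), both repressors of epithelial genes.

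Summed over the 6 melanocytic markers, scaled reads were 108 to 152 with MRTFB, 138 to 156 with MRTFA and 137 to 162 in controls. The mammary marker sum, most of it Krt8, was 16726 to 18735 with MRTFA, 7223 to 10809 with MRTFB and 7110 to 9435 in controls. Within the melanocyte gene list, Rab27a, which moves melanosomes and other vesicles, was lower with MRTFB (1321, 1452 and 1180 against 58.5, 36.7 and 70.6; −4.59), while Mitf (0.85) and Met (0.65) were higher. The immune markers Ptprc, Cd3e and Adgre1 were not in the table, and Cd68 and Csf1r summed to 53.9 to 117 scaled reads with MRTFA and 64 to 107 with MRTFB. Of 6 tested genes of the immune list, Cd74, the invariant chain of MHC class II, was lower with MRTFB (356, 257 and 93 against 5.63, 3.77 and 1.1; −5.66), as was Coro1a (−3.73), and Lyz2 was higher (0.72). Of 5 endothelial and fibroblast genes, Vwf was lower (−5.64), and Pdgfra (1.13) and Egfl7 (0.81) were higher. Among all tested genes, 20.4% were called lower with MRTFB and 14.1% higher. Pdgfrb had 1265, 1167 and 1214 scaled reads with MRTFA and 1098, 992 and 978 with MRTFB. It was lower with MRTFB in all 3 replicate pairs but was not called. Endothelial and fibroblast markers summed to 1493 to 1670 scaled reads with MRTFA, 1743 to 1949 with MRTFB and 1890 to 2038 in controls. What part such cell types have in the results was not tested. In cultured cells read in bulk, a change in every cell and a change in the share of responding cells cannot be told apart.

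Genes higher with MRTFB than with MRTFA differed by small amounts. Their MRTFA values lay below every control in 89.2% of the called genes, against 25.9% of all tested genes. Their MRTFB values overlapped the controls in 95.4%, near the 94.4% of all tested genes. The protease-activated receptor F2rl1 (chromosome 13, 95511732 to 95525227) had 2015, 2050 and 1776 scaled reads with MRTFB and 469, 506 and 514 with MRTFA (1.97, SE 0.11, adjusted p = 4.82e-05), with controls at 1801 to 2133. The interleukin-6 receptor Il6ra had 2210, 2908 and 1837 against 802, 938 and 711 (1.49, SE 0.10, adjusted p = 9.87e-05). The vitamin D receptor Vdr (1.54), the retinol-binding protein Rbp7 (1.80) and the lipid transporter Abca8b (1.53) also overlapped the controls with MRTFB. Lipn, a lipase gene of skin, was different. It had 109, 113 and 91.6 scaled reads with MRTFB, 14.9, 16.7 and 20.9 with MRTFA and 32.2, 51.1 and 39.2 in controls, so that MRTFB stood above and MRTFA below every control (2.52, SE 0.24, adjusted p = 0.000441).

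Proliferation genes were higher with MRTFB as a broad, shallow group. Of 35 cell cycle and replication genes 20 were called higher and 2 lower (median 0.39), against 14.1% and 20.4% of all tested genes, and 9 in all without replicate pair 2. Mcm6, a subunit of the replicative helicase, had 13182, 13174 and 12393 scaled reads with MRTFB and 6904, 7262 and 8310 with MRTFA (0.79, SE 0.10, adjusted p = 0.00165). The sliding clamp Pcna had 6534, 7091 and 6205 against 4249, 4489 and 3797 (0.66, adjusted p = 0.0014), and the mitotic cyclin Ccnb2 stood at 0.59. Gins2, a further helicase component, went against its group (−0.87, adjusted p = 0.000736), and the mitotic kinase Aurka (0.10, 95% interval −0.10 to 0.30) was close to equal.

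Lipid synthesis genes were higher with MRTFB in part: 13 of 33 were called higher and 1 lower, against 14.1% and 20.4% of all tested genes. The median was 0.23, and 9 in all were called without the replicate block and 5 without replicate pair 2. The desaturase Scd2 had 42415, 44383 and 30486 with MRTFB and 22068, 20896 and 13229 with MRTFA (1.08, SE 0.10, adjusted p = 0.000354). The elongase Elovl6 stood at 1.04, and the sterol enzyme Sqle stood at 0.78. MRTFA replicate 3 was the lowest MRTFA library in 27 of these 33 genes. Without replicate pair 3, 17 were called higher and 4 lower (median 0.26), and without the block and MRTFA replicate 3, 6 higher and 3 lower (median 0.13). Ribosomal protein genes had 6 of 40 called higher and 0 lower by limma (0 at an unadjusted p under 0.05, and 0 by edgeR and DESeq2; median 0.21), a share near the 14.1% of all tested genes. That count was 0 without replicate pair 2 and 14 with upper-quartile scaling.

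A set of genes was read with MRTFA and was at or near 0 with MRTFB. In 66 genes the MRTFB libraries held at most 3 reads in all while the MRTFA mean was at least 50 scaled reads, and in 26 of them they held none. Tub, a gene expressed in neurons, had 919, 997 and 781 scaled reads with MRTFA and 0 in all MRTFB and control libraries, so it was at least 860-fold lower with MRTFB. Plac8 had 564, 501 and 357 against a single read over the MRTFB libraries, a ratio of 1361 (counting interval 244 to 53796). The germ-cell cyclin Ccna1 had 2311 reads against 3, a ratio of 725 (248 to 3516). The control libraries together held 1 read of Plac8, 0 of Ccna1 and at most 8 of any of the 66 genes. The fitted log2 values of such genes depend on the pseudocount, so the ratio of reads is given. Just outside this set, with slightly more reads, were the blood-cell adaptor Lcp2 (945, 1279 and 1574 against 2.25, 0 and 6.62) and the mucin gene Muc3a (1601, 1405 and 843 against 1.13, 0.941 and 2.21).

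The same contrast in B16F10 cells was used to ask which of these differences depend on the line. There 507 of 13314 tested genes were called, 473 lower and 34 higher with MRTFB. Tested directly, the difference between MRTFB and MRTFA depended on the line (E0771 minus B16F10) for 3047 of 14642 genes (20.8%), and for 1845 without the replicate block. Without replicate pair 1 the count was 1614 and without pair 2 it was 437.

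Acta2 did not differ between the lines beyond its error: it stood at −3.40 in E0771 and −3.14 in B16F10, and the line difference was −0.26 with a 95% interval of −1.77 to 1.26 (adjusted p = 0.816). The wide interval goes with B16F10 MRTFB replicate 3, which had 28018 scaled reads of Acta2 where replicates 1 and 2 had 3856 and 2146. Without replicate pair 3 the line difference was 0.47 (adjusted p = 0.0458). Actc1 stood at −12.22 in E0771 and −7.65 in B16F10, where MRTFA libraries had 9686, 6148 and 9915 scaled reads and MRTFB libraries 35.3, 9.32 and 195 (line difference −4.57, adjusted p = 0.00888). That call was lost without pair 1 (adjusted p = 0.0596) and pair 2 (0.0584). Itga5 differed by more in E0771 (−3.04 against −1.55; line difference −1.49, adjusted p = 0.000363), while Cnn1 differed by more in B16F10 (−4.47 against −7.50; 3.04, adjusted p = 0.019). The Cnn1 call was lost without the block (0.0641) and without pair 1 (0.0849) or pair 2 (0.225).

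Plcb4 and Tnik had the largest line differences, with levels in B16F10 that were close in both groups. Plcb4, a phospholipase of G-protein signalling, had 1724, 2027 and 1444 scaled reads in E0771 with MRTFA and 2.25, 2.82 and 8.83 with MRTFB. In B16F10 it had 1655, 1953 and 2196 with MRTFA and 1829, 1897 and 2037 with MRTFB (line difference −8.43, SE 0.46, adjusted p = 8.71e-05). The kinase Tnik had 350, 497 and 413 against 2.25, 0.941 and 0 in E0771, and 817 to 964 against 873 to 899 in B16F10 (−7.83, adjusted p = 8.71e-05). In the opposite direction, the fibrillar collagen Col3a1 stood at −1.83 in E0771 and −5.76 in B16F10 (line difference 3.93, adjusted p = 0.00188; 0.0544 without pair 2). The transgenes' own genes differed less in B16F10, with Mkl1 at −0.32 (1398, 902 and 1314 against 977, 768 and 1131) and Mkl2 at 0.12. An effect of the line and a difference in transgene level between the lines cannot be told apart in this comparison.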

How the data were processed

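RNA-seq was made for 18 libraries, and the authors deposited a table of 18909 genes whose values are a signal, reads divided by a DESeq size factor per library. Per the submitters' processing notes, cutadapt 1.6, STAR 2.5.0a, HTSeq 0.5.3, DESeq and the mm10 build were used; for strandedness and reads that fit several genes the setting is not given in the sources used. All values in the deposited signal came out as whole reads within 0.001 read, which gave 27607055 to 37116655 reads for the 6 libraries.

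The filter kept genes that reached 10 scaled reads in 3 or more fitted libraries. A gene high in only 1 group could pass through that group alone, so its direction was in part fixed by the filter. limma 3.58.1 with a mean-variance trend was run on log2(value + 1), with the replicate number as a block, in R 4.3.3; p-values were Benjamini-Hochberg adjusted over all tested genes and called under 0.05. A fold change on this scale understates the change of low genes. The line difference was fitted on 12 libraries with a block per line and replicate number. Libraries of equal number tended to deviate together: in E0771 their correlations were 0.124, 0.473 and 0.336, and in B16F10 0.293, 0.404 and 0.545. Between unequal numbers correlations ran from −0.401 to 0.093 in E0771 and from −0.388 to 0.09 in B16F10. In E0771 the 0.124 of replicate 1 was close to the 0.093 of MRTFA replicate 1 with MRTFB replicate 2. The numbers were taken to pair the libraries, and the labels do not say what a number stands for. edgeR 4.0.16 and DESeq2 1.42.0 on the recovered reads, other scalings, pseudocounts and filters, and left-out libraries were alternatives. On simulated reads with 200 changed genes, the main test recovered 96 of 100 genes changed 2-fold and 100 of 100 changed 4-fold, with 21 false calls among 12960 genes. The line test recovered 80 of 100 and 100 of 100, with 15 false calls among 14642. These reads had a deviation shared by equal-numbered libraries, as the model assumes, known size factors, and as many genes raised as lowered. Errors of scaling, of the block or from many changes in 1 direction were therefore not probed.

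The genes named were 26 anchors of the pathway; the 12 largest called differences each way without overlap and with a higher group mean of at least 50; in each list, the members with the lowest adjusted p, 5 at most; the 5 largest line differences each way; and up to 2 abundant members per list whose interval lay close to no difference. Clone-named genes were left out, and other genes are cell type markers or are marked as chosen after their values were seen. The comparison and the 30 gene lists were chosen with earlier results of these data known. Ratios for genes at 0 reads use a limit of 3 reads over the group, and intervals on reads cover counting error only. Promoters were taken from RefSeq on GRCm38.p6, and gene positions from GENCODE M21 on mm10. Figures were drawn with matplotlib 3.10.9.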

Additional observations from a re-analysis of the deposited data

Results flagged for a closer look

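The difference between MRTFB and MRTFA depended on the line, by a test of that difference, for 26 named genes. Values are E0771 minus B16F10 on the log2 scale by limma. The count covers only the anchors and the 5 largest called line differences each way, and leaves out the other named genes. For the largest differences the call was part of the choice. Over all tested genes 20.8% were called (3047 of 14642). Among the transgenes and SRF, it was −3.03 for Mkl1, 0.75 for Mkl2 and −1.61 for Srf. Among actin and contractile genes it was −4.57 for Actc1, −0.66 for Actb, −0.49 for Actg1, −2.35 for Myl9, −4.60 for Mylk and −1.31 for Vcl, and 3.04 for Cnn1. Among growth-response, adhesion and matrix genes it was −2.55 for Ctgf, −0.58 for Cyr61, −1.49 for Itga5, −2.38 for Itga1, −3.04 for Egr1, −4.39 for Egr3 and 3.93 for Col3a1. Chosen as the largest differences were −8.43 for Plcb4, −7.83 for Tnik, −7.56 for Col9a2, −7.46 for Epb41l4b and −7.21 for Lpar4 in the negative direction. In the positive direction they were 4.29 for Alpl, 4.07 for Stbd1, 3.85 for Aknad1 and 3.71 for Shank3. Fitted values of genes at 0 reads in a group depend on the pseudocount or tool, and so does their order: over the alternatives Col9a2 ran from −10.61 to −5.27, Aknad1 from 1.90 to 6.75 and Shank3 from 1.74 to 6.89. Line and transgene level cannot be told apart for any of the 26 genes.

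Some of these calls rested on 1 replicate pair or on the model. Those of Mkl2, Srf, Myl9, Vcl, Ctgf, Egr1, Egr3 and Col3a1 were lost without pair 2, that of Egr3 also with edgeR, and that of Actc1 without pair 1 or pair 2. The calls of Actb, Actg1, Cnn1 and Cyr61 were lost without the replicate block and without pair 2, those of Actb and Cnn1 also without pair 1, those of Actg1 and Cyr61 also without pair 3, and that of Actg1 also with upper-quartile scaling. Stbd1 was called neither by DESeq2 (3.73, adjusted p = 0.118) nor by edgeR (2.69, adjusted p = 0.894), and DESeq2 gave no adjusted p for Alpl and Aknad1.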

How the results depend on the processing

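Of the 170 named called genes, 142 were called under each of the 19 alternatives that tested them, 28 lost the call under at least 1, and 0 changed direction. The count of 4465 calls ranged from 2159 to 6643 when a replicate pair was left out, and from 2629 to 4345 when 1 library was left out without the block. Without the replicate block it was 4224, of which 3980 were shared with the blocked fit. The line difference gave 1845 calls without the replicate block against 3047 with it, and 437 to 3002 when a replicate pair was left out. Upper-quartile scaling split the calls into 2590 higher and 2432 lower, against 1827 and 2638, and the line calls into 1663 higher and 1740 lower, against 1115 and 1932. edgeR called 4511 genes and DESeq2 3975. Without the block, calls in the MHC class I list went from 13 to 7, interferon from 13 to 2, sterol from 14 to 9, glycolysis from 16 to 10 and ATF4 from 5 to 3. Leaving out pairs 1 or 2 raised the interferon calls to 21 or 20. With 3 libraries a group, the power to call small differences is limited. Read depth was at least 27607055 reads, and what part depth or the spread between libraries has in this limit was not tested.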
